A study of Mus musculus with 28 samples.

Results

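ImuBcl6 germinal center B cells were compared with Cre control cells in bulk RNA-seq of mouse material, using 5 ImuBcl6 libraries and 5 Cre control libraries chosen by their titles, which is 10 of the 28 libraries of the series. The ImuBcl6 cells have the genotype label ImuBCL6 with Cg1Cre(+/-) and Tbl1xr1(WT/WT). The Cre control cells are labelled Cg1Cre(+/-) with Tbl1xr1(WT/WT). A further group of 3 libraries titled WT carries the same genotype label as the Cre control and is used here as another measure of cells without the ImuBcl6 allele. The 5 ImuBcl6 D370Y and the 5 D370Y libraries carry Cg1Cre(+/-) and Tbl1xr1(D370Y/WT), a heterozygous point mutation, with and without ImuBcl6. Every group, controls included, therefore carries one Cre allele. Age, strain, immunization, the number of ImuBcl6 alleles and the animals behind the libraries are not stated in the labels. The p-values therefore measure only the spread between these libraries, which may be technical. A stranded TruSeq kit is named in the labels of the Cre control libraries, and for the ImuBcl6, WT and both D370Y groups no kit is stated there.

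BCL6 is the zinc finger repressor that B cells need to form germinal centers, the sites in which they proliferate and mutate their antibody genes. It silences genes of cell cycle arrest, DNA damage sensing, migration, interferon signalling and plasma cell differentiation by recruiting corepressors, among them a complex that contains TBL1XR1. The ImuBcl6 allele expresses Bcl6 from the immunoglobulin heavy-chain Iμ promoter, so that B cells do not shut it off as they leave the germinal center, and mice with it develop B cell lymphoma. Cg1Cre expresses Cre recombinase in B cells that transcribe the γ1 constant region, which includes most cells of a germinal center.

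Values are the deposited CPM, the reads of a gene scaled to a common library size. Autosomal genes with at least 1 CPM in at least 5 of the 10 libraries, 10293 in all, were tested with limma on log2(CPM + 1). A gene is said to have risen or fallen in ImuBcl6 cells at a Benjamini-Hochberg adjusted p below 0.05. Log2 fold changes are on that log2(CPM + 1) scale, with the standard error (SE) after the ± sign, and levels are in CPM with the SD over libraries (n = 5 ImuBcl6, 5 Cre control, 3 WT, 5 ImuBcl6 D370Y, 5 D370Y). Values in parentheses without a unit are log2 fold changes of ImuBcl6 against Cre control unless another comparison is named, and the median of a gene list is the median of its log2 fold changes. Reads recovered on the listed genes came to 31.8 to 36.5 M per ImuBcl6 library and 30.0 to 32.0 M per Cre control library. Markers of the labelled cell type were present in both groups. The 12 pan B cell markers summed to 10028.9 to 10885.5 CPM in ImuBcl6 and 11221.8 to 11753.9 CPM in Cre control libraries. The 24 germinal center genes summed to 6805.2 to 7255.8 CPM in ImuBcl6 and 6303.9 to 6970.9 CPM in Cre control libraries.

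The comparison is a broad one. Of the genes tested 71.1% passed, 4077 higher (39.6%) and 3246 lower (31.5%) in ImuBcl6 cells, and with a 2-fold change also required 979 were higher (9.51%) and 149 lower (1.45%). Cre control against WT, which have one genotype label, gave 77.1%, ImuBcl6 against WT 53.0% and ImuBcl6 D370Y against D370Y 53.6%. The log2 fold change of ImuBcl6 against Cre control fell with GC content of the longest transcript (Spearman rho -0.66 over 10293 genes, which share the same 10 libraries), with a median of 0.71 in the lowest and -0.45 in the highest of 10 equal groups of genes by GC content. In Cre control against WT the relation ran the other way (rho 0.72, medians -1.20 and 0.39). It also did so in ImuBcl6 against WT (rho 0.34) and in ImuBcl6 D370Y against D370Y (rho 0.25). The 45S ribosomal precursor Rn45s took 2113 to 3292 CPM in ImuBcl6, 15978 to 18319 CPM in Cre control and 9506 to 11681 CPM in WT libraries. Xist, which the inactive X chromosome transcribes, was at 304 to 638 CPM in all 5 ImuBcl6 libraries and at 86.7 to 179.2 CPM in 4 Cre control libraries, while Cre control replicate 4 and the 3 WT libraries expressed the Y-linked Ddx3y. The parts of library preparation, base composition and sex in these differences were not tested, and library preparation and genotype cannot be told apart.

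**Figure D1:**
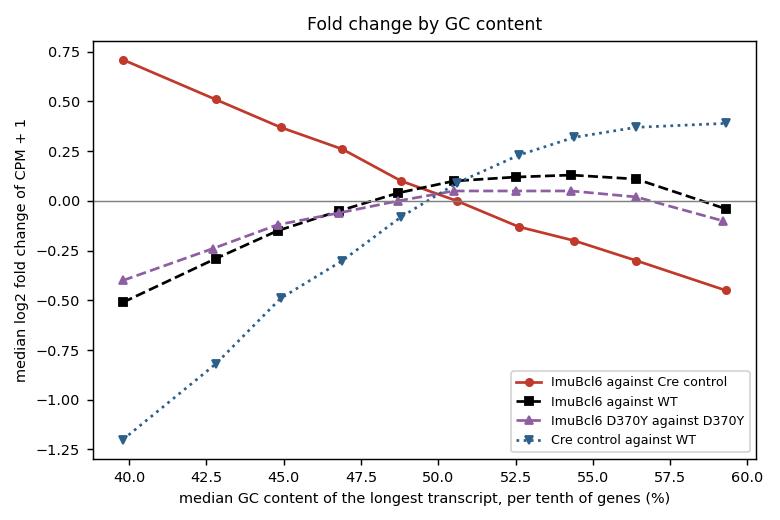
Median log2 fold change of CPM + 1 (y axis) in 10 equal groups of the tested genes ordered by GC content of the longest transcript in percent (x axis), for ImuBcl6 against Cre control, ImuBcl6 against WT, ImuBcl6 D370Y against D370Y and Cre control against WT. The line of ImuBcl6 against Cre control runs down from 0.71 to -0.45, while the line of Cre control against WT runs up from -1.20 to 0.39.

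Each result is given with the WT libraries beside it. A gene is called beyond both control groups where every ImuBcl6 library lies on one side of every Cre control and every WT library. This was so for 876 genes that were higher (8.51%) and 801 that were lower (7.78%) in ImuBcl6 cells. Every count over a gene list is to be read beside these shares and beside the 39.6% of all genes that rose and 31.5% that fell. Those shares do not apply to counts from other fits. With the trend over GC content and length removed, 4453 of the 10293 genes rose and 2278 fell (median of all genes 0.104). With TMM scaling 3556 rose and 3980 fell (median -0.03). ImuBcl6 D370Y against D370Y, which shares no library with the main comparison, is given as well.

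Bcl6 itself (chromosome 16, 23965052 to 23988852, minus strand on mm10) was higher in ImuBcl6 cells. Its level was 547, 546, 589.7, 544 and 522 CPM in the ImuBcl6 libraries, against 308, 346, 367, 358 and 369 CPM in the Cre control libraries. In WT libraries Bcl6 was at 358, 366 and 364 CPM. The ImuBcl6 libraries did not overlap either control group, and the control groups overlapped each other. The log2 fold change was 0.65 ± 0.06 (95% interval 0.53 to 0.78, adjusted p = 2.29e-07), against 0.60 ± 0.05 with WT as the control and 0.36 ± 0.07 in ImuBcl6 D370Y against D370Y. Whole-gene CPM do not separate transcripts of the allele from those of the endogenous gene, and a gene model on the opposite strand, Gm37419, overlaps Bcl6.

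**Figure D2:**
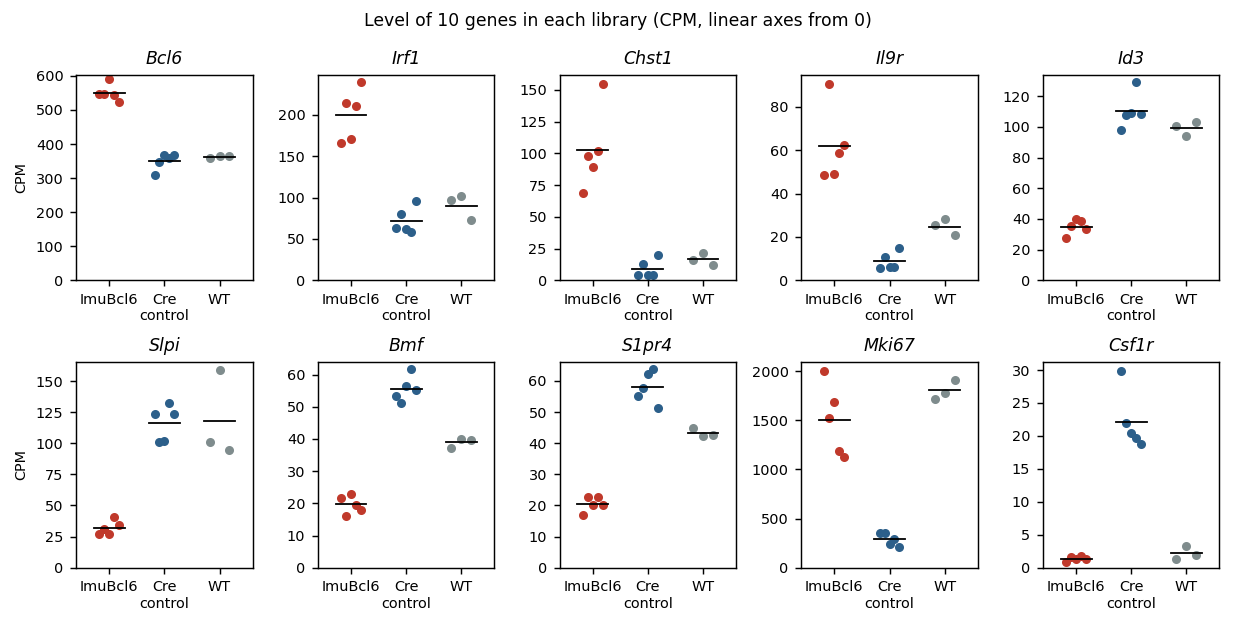
Level in CPM (y axis, linear and from 0) of 10 genes in each ImuBcl6, Cre control and WT library, with 1 point per library and a bar at the group mean. Bcl6, Irf1, Chst1 and Il9r were higher and Id3, Slpi, Bmf and S1pr4 lower in ImuBcl6 than in both other groups, whereas the proliferation gene Mki67 and the macrophage receptor gene Csf1r set the Cre control libraries apart from the other 2 groups.

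Interferon response genes had the highest median change of the 36 gene lists. Of 21 tested members 17 rose and 0 fell, 12 of them by at least 2-fold, and 15 were beyond both control groups. Their median log2 fold change was 1.33, beside 0.05 over all tested genes, and with the trend over GC content and length removed from each library it was 1.20 and all 21 passed. It was 0.81 against WT and 0.60 in ImuBcl6 D370Y against D370Y, and -0.05 in Cre control against WT. Of the other list members, Ifit1 and Rsad2 were below the filter on low values.

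Signal transducers of the pathway were higher in part. Irf1, a transcription factor that interferons induce (chromosome 11, 53770014 to 53778374, plus strand), had 166, 214, 170.4, 211 and 239 CPM in the ImuBcl6 libraries, against 63.3, 79.7, 62.3, 58.1 and 95.3 CPM in the Cre control libraries. In WT libraries Irf1 was at 96.5, 102 and 72.3 CPM, and every ImuBcl6 library was above every library of both control groups (1.48 ± 0.13, adjusted p = 2.9e-07). Irf9, the DNA-binding subunit of the type I interferon transcription complex, rose less (76.5 ± 4.93 CPM in ImuBcl6 against 51.9 ± 5.74 CPM in Cre control cells, 0.56 ± 0.08). Stat2 (75.9 ± 2.79 CPM in ImuBcl6 against 74.2 ± 3.77 CPM in Cre control cells, 0.03 ± 0.05, adjusted p = 0.593) and Irf7, the amplifier of type I interferon synthesis (50.0 ± 2.93 CPM in ImuBcl6 against 43.8 ± 7.66 CPM in Cre control cells, 0.20 ± 0.10, adjusted p = 0.0794), did not pass. Of the receptor chains, the type I subunits Ifnar1 and Ifnar2 rose by 0.22 and 0.44 on the log2 scale and overlapped the WT libraries, while the interferon gamma receptor subunit Ifngr1 fell to 54.5 ± 3.12 CPM in ImuBcl6, against 65.4 ± 1.7 CPM in Cre control cells (log2 fold change -0.26 ± 0.05) and lay below both control groups.

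Among effector genes the GTPases of cell-autonomous immunity rose. The guanylate-binding protein gene Gbp2 had 25.2 ± 2.7 CPM in ImuBcl6, against 6.7 ± 1.9 CPM in Cre control cells (log2 fold change 1.80 ± 0.14, adjusted p = 1.1e-07) and 13.9 ± 1.14 CPM in WT cells. The immunity-related GTPase Igtp had 47.3, 59.7, 49.4, 51.3 and 65.3 CPM in the ImuBcl6 libraries, against 14.5, 14.6, 16, 12.9 and 21 CPM in the Cre control libraries. In WT libraries Igtp was at 21.8, 26.5 and 21.7 CPM. All 5 ImuBcl6 libraries were higher than the 8 control libraries (1.73 ± 0.12, adjusted p = 3.44e-08). Its relatives Irgm1 (1.55 ± 0.15), Ifi47 (1.33 ± 0.13) and Iigp1 (1.72 ± 0.15, at 2.99 ± 0.838 CPM in ImuBcl6 against 0.198 ± 0.159 CPM in Cre control cells) rose too, as did the T cell specific GTPase Tgtp2, which is described with the largest rises. The antiviral genes Oasl2 (1.74 ± 0.15) and Mx1 (1.42 ± 0.15), the deISGylase Usp18 (1.66 ± 0.19), the nucleic acid sensor Zbp1 (1.15 ± 0.10) and Xaf1 (0.92 ± 0.13) were beyond both control groups as well. Gbp3 depended on the control: it was at 34 ± 4.48 CPM in ImuBcl6, 12 ± 2 CPM in Cre control and 36.7 ± 2.11 CPM in WT cells, which gave 1.43 against Cre control and -0.11 against WT. The ubiquitin-like modifier Isg15 changed by 0.41 ± 0.12, and Oas1a (adjusted p = 0.216) and Bst2 (adjusted p = 0.199) did not pass. Igtp overlaps the annotated gene Irgm2 on the same strand, and Tgtp2 and Ifi47 overlap Olfr56, so reads of these neighbours could have been shared.

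**Figure D3:**
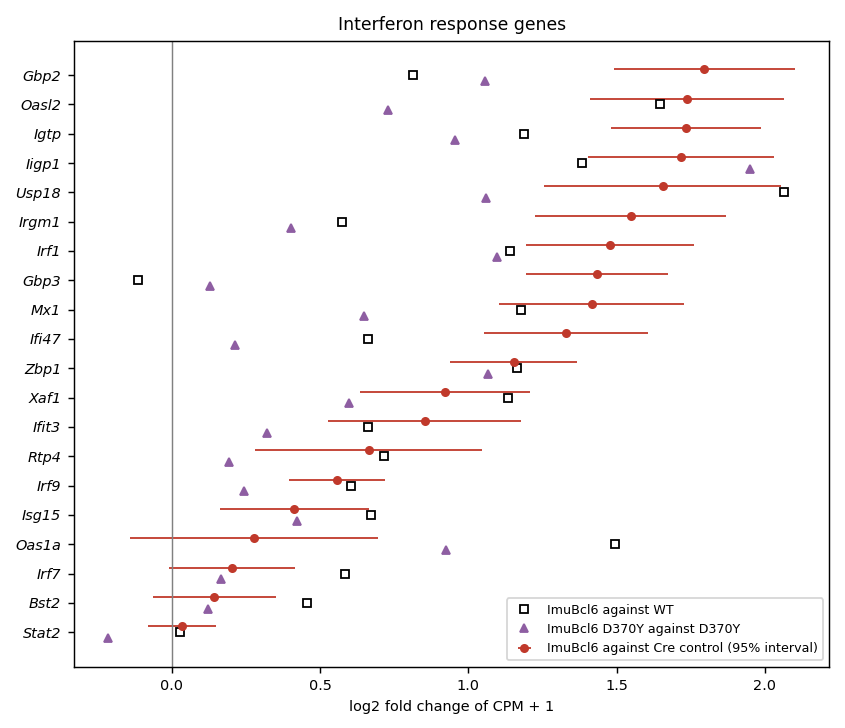
Log2 fold change of CPM + 1 (x axis) of 20 tested interferon response genes (rows), as circles with 95% intervals for ImuBcl6 against Cre control, squares for ImuBcl6 against WT and triangles for ImuBcl6 D370Y against D370Y. The circles of 16 genes passed the test to the right of 0; for Gbp3 the square lies left of 0, at -0.11, and for Stat2 all 3 symbols lie near 0.

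The promoters of 3 of these GTPase genes are shown because they hold the interferon-stimulated response element core, a site bound by IRF proteins, within 250 bases before to 50 after the start. Capitals mark GAAANNGAA (on either strand, where it reads TTCNNTTTC on the other) and TTCNNNGAA, a palindrome that covers STAT sites and resembles the BCL6 site, and the pair may overlap. Sequences are from RefSeq on GRCm38.p6, for Igtp at chr11:58199306-58199605, plus strand, for Gbp2 at chr3:142620413-142620712, plus strand and for Tgtp2 at chr11:49064163-49064462, minus strand.
Igtp: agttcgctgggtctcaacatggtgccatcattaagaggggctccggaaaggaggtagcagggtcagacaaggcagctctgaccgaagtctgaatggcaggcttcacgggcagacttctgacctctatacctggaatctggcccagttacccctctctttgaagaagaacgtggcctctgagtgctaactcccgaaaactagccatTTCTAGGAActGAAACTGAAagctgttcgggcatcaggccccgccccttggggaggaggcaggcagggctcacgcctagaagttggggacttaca
Gbp2: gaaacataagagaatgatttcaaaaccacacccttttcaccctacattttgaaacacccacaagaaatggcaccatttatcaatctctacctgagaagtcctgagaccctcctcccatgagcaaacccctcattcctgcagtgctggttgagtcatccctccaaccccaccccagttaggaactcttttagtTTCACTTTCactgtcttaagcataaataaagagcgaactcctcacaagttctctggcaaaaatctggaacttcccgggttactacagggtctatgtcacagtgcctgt
Tgtp2: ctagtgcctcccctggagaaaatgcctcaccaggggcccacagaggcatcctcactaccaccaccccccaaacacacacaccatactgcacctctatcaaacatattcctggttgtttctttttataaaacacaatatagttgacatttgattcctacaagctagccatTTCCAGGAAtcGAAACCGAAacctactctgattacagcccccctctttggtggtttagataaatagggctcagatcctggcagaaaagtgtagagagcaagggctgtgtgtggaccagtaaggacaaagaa
Igtp and Tgtp2 each hold one match to both motifs side by side, and Gbp2 holds the first alone, read on the other strand. GAAANNGAA was in the promoter window of 9 of the 15 interferon list members with an entry (60.0%), beside 695 of 8202 tested genes (8.47%). Among genes beyond both control groups it was in 61 of 674 higher (9.05%) and 31 of 634 lower (4.89%). TTCNNNGAA was in 4 of the 15 (26.7%), in 1 of 18 BCL6 repression targets (5.56%) and in 677 of the 8202 (8.25%). These counts describe the letters in the window and not sites of binding.

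Beyond the interferon list, the largest rises that held against both control groups were in genes of varied function. Chst1, a sulfotransferase that modifies keratan sulfate and related glycans (chromosome 2, 92599707 to 92615250, plus strand), had 69, 97.7, 89.6, 102 and 155 CPM in the ImuBcl6 libraries, against 4.6, 12.7, 4.19, 4.36 and 20.3 CPM in the Cre control libraries. In WT libraries Chst1 was at 16.1, 21.6 and 12.3 CPM. The lowest ImuBcl6 library was above the highest library of either control group (3.55 ± 0.38, adjusted p = 3.52e-06). Wipf3, an actin regulator of the WIP family, stood at 14.6 ± 4.31 CPM in ImuBcl6 against 0.474 ± 0.545 CPM in Cre control cells (3.43 ± 0.25), with 1.01 ± 0.405 CPM in WT cells. Tgtp2 was at 13.3 ± 2.95 CPM in ImuBcl6 against 0.998 ± 0.694 CPM in Cre control cells (2.88 ± 0.21) and 1.48 ± 0.721 CPM in WT cells. The formin Fhod3, another actin regulator, was at 17.5 ± 5.39 CPM in ImuBcl6 against 1.51 ± 0.199 CPM in Cre control cells (2.84 ± 0.16), and the WT level of 1.46 ± 0.413 CPM was close to that of the Cre control.

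Il9r, the receptor for interleukin 9 and a gene of memory B cells (chromosome 11, 32187541 to 32200279, minus strand), had 48.4, 90.6, 48.9, 58.7 and 62.2 CPM in the ImuBcl6 libraries, against 5.78, 10.6, 5.98, 6.26 and 15.1 CPM in the Cre control libraries. In WT libraries Il9r was at 25.4, 28.1 and 20.9 CPM. The 3 groups did not overlap, with ImuBcl6 highest and Cre control lowest (2.74 ± 0.23, adjusted p = 1.71e-07). Serpina3g, a protease inhibitor induced in activated lymphocytes and by interferon gamma, was at 119.7 ± 31.1 CPM in ImuBcl6 against 18.5 ± 6.35 CPM in Cre control cells (2.65 ± 0.21). The adenylate kinase Ak7 (2.52 ± 0.13), the tyrosine phosphatase Ptpn13 (2.46 ± 0.16), the natriuretic peptide receptor Npr2 (2.43 ± 0.14), Fam101a, now Rflna, a regulator of filamin (2.42 ± 0.25), and the adhesion receptor Lphn2, now Adgrl2 (2.94 ± 0.20), were also beyond both groups. Their D370Y comparisons gave 1.38, 1.49, 1.01, 0.97 and 1.15. Fam135a was at 15 ± 3.43 CPM in ImuBcl6, 0.868 ± 0.467 CPM in Cre control and 8.95 ± 1.82 CPM in WT cells (3.11 ± 0.17), and its D370Y comparison gave -0.42. Wipf3 overlaps Scrn1 and Fhod3 overlaps Tpgs2 on the opposite strand.

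Among the largest falls beyond both control groups, Slpi, Lrrc32, Id3, Hbb-bh1 and Eps8l1 had Cre control and WT libraries that overlapped. Slpi, a secreted inhibitor of leukocyte proteases (chromosome 2, 164354070 to 164389095, minus strand), had 27.2, 31.4, 27.3, 40.5 and 34.4 CPM in the ImuBcl6 libraries, against 124, 101, 102, 132 and 124 CPM in the Cre control libraries. In WT libraries Slpi was at 101, 159 and 94.5 CPM. No ImuBcl6 library came near the controls (-1.83 ± 0.11, adjusted p = 1.23e-08), and the fall was -2.60 ± 0.24 in ImuBcl6 D370Y against D370Y. Id3, the inhibitor of E proteins that restrains germinal center B cell growth and is mutated in Burkitt lymphoma (chromosome 4, 136143497 to 136145755, plus strand), had 27.9, 35.2, 39.8, 38.7 and 33.5 CPM in the ImuBcl6 libraries, against 98.2, 108, 109, 129 and 108 CPM in the Cre control libraries. In WT libraries Id3 was at 100.5, 94.2 and 103 CPM. The groups without the allele overlapped each other and lay above every ImuBcl6 library (-1.63 ± 0.09, adjusted p = 9.77e-09). Lrrc32, which anchors latent TGF-beta at the cell surface, was at 2.92 ± 0.716 CPM in ImuBcl6, 12.8 ± 1.89 CPM in Cre control and 11.9 ± 1.13 CPM in WT cells (-1.83 ± 0.13). The receptor tyrosine kinase Ret was at 4.54 ± 0.769 CPM in ImuBcl6, 16.3 ± 1.82 CPM in Cre control and 12.5 ± 0.185 CPM in WT cells (-1.65 ± 0.11). Its Cre control libraries lay above the WT libraries. Lrrc32 and Ret fell in the D370Y comparison too (-1.51 ± 0.22 and -1.47 ± 0.18). Hbb-bh1, an embryonic globin gene, was at 15.2 ± 2.04 CPM in ImuBcl6, 47.1 ± 7.09 CPM in Cre control and 42.3 ± 3.42 CPM in WT cells (-1.57 ± 0.11). Eps8l1, a relative of the actin regulator EPS8, was at 5.23 ± 2.68 CPM in ImuBcl6, 18.7 ± 5.99 CPM in Cre control and 23.8 ± 1.19 CPM in WT cells (-1.70 ± 0.25) and did not pass with D370Y (-0.29, adjusted p = 0.13). The growth hormone gene Gh was at 6.96 ± 1.57 CPM in ImuBcl6, 21.2 ± 1.51 CPM in Cre control and 14.5 ± 1.61 CPM in WT cells (-1.50 ± 0.12). It lies at 106300271 to 106301865 on chromosome 11, and the abundant Cd79b at 106311341 to 106314762, both on the minus strand. Cd79b had the same order of group means, but with D370Y Gh gave -0.82 and Cd79b -0.001. Whether transcripts of Cd79b reach Gh was not tested.

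**Figure D4:**
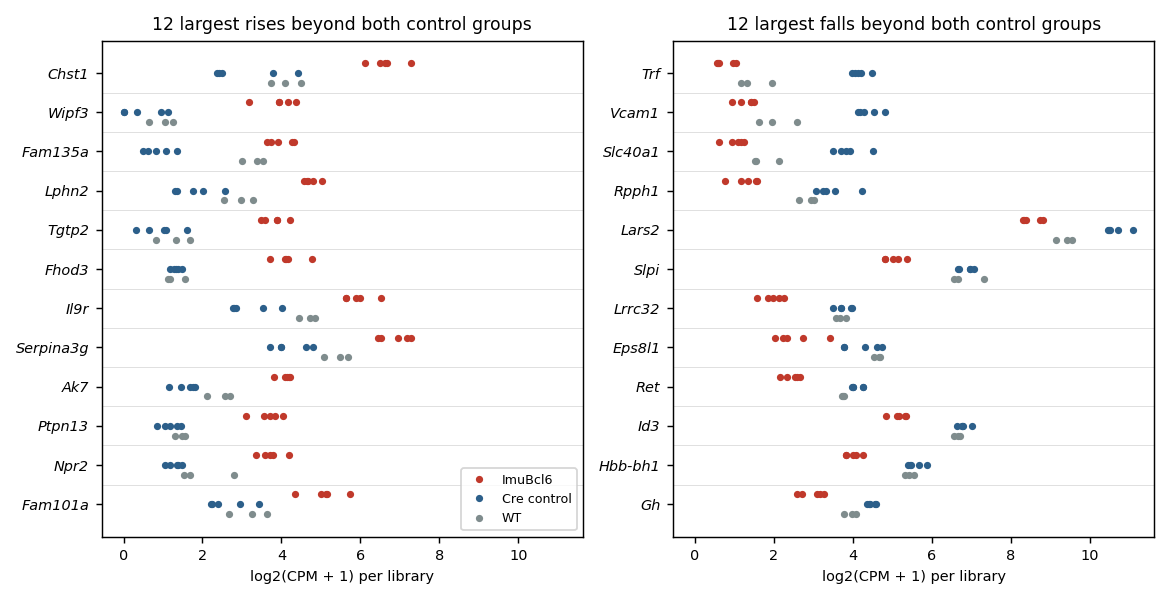
log2(CPM + 1) of each library (x axis, 1 point per library) for the 12 genes with the largest rises (left panel) and the 12 with the largest falls (right panel) among called genes that lay beyond both control groups, in ImuBcl6, Cre control and WT. In Slpi, Lrrc32 and Id3 the Cre control and WT points coincide, whereas in Trf, Vcam1 and Slc40a1 the WT points lie near the ImuBcl6 points and far from the Cre control.

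In the remaining large falls the Cre control cells had the highest mean of the 3 groups. Trf, which encodes the iron carrier transferrin, was at 0.696 ± 0.281 CPM in ImuBcl6, 17.2 ± 2.6 CPM in Cre control and 1.86 ± 0.854 CPM in WT cells (-3.43 ± 0.13). Vcam1, an adhesion molecule of macrophages and stroma, was at 1.47 ± 0.37 CPM in ImuBcl6, 20.3 ± 4.53 CPM in Cre control and 3.31 ± 1.54 CPM in WT cells (-3.10 ± 0.14), and the iron exporter Slc40a1 at 1.03 ± 0.326 CPM in ImuBcl6, 14.3 ± 4.43 CPM in Cre control and 2.4 ± 0.867 CPM in WT cells (-2.89 ± 0.17). The mitochondrial leucyl-tRNA synthetase Lars2 was at 370.5 ± 64.6 CPM in ImuBcl6, 1635 ± 321 CPM in Cre control and 668 ± 91.6 CPM in WT cells (-2.14 ± 0.13). The 3 groups stood in the same order for the ribosomal precursor Rn45s. Whether reads of ribosomal RNA enter the Lars2 value was not tested. The RNase P RNA Rpph1, a short structured RNA, was at 1.47 ± 0.529 CPM in ImuBcl6, 10.6 ± 4.13 CPM in Cre control and 6.36 ± 1 CPM in WT cells (-2.20 ± 0.20), and the related RNase MRP RNA Rmrp at 0.293 ± 0.168 CPM in ImuBcl6, 3.48 ± 0.93 CPM in Cre control and 2.3 ± 0.121 CPM in WT cells (-1.78 ± 0.15).

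Myeloid and macrophage markers were counted as a list of their own. Of 12 tested, 7 fell, all by at least 2-fold, and 2 rose, with a median log2 fold change of -1.25 against Cre control and 0.04 against WT. Csf1r, the receptor that macrophages need to survive (chromosome 18, 61100598 to 61132149, plus strand), had 0.831, 1.55, 1.35, 1.74 and 1.26 CPM in the ImuBcl6 libraries, against 29.8, 22, 20.4, 19.7 and 18.7 CPM in the Cre control libraries. In WT libraries Csf1r was at 1.33, 3.27 and 1.95 CPM. The Cre control stood apart while the ImuBcl6 and WT libraries overlapped (-3.29 ± 0.13). The complement genes C1qa (-3.22), C1qb (-3.21) and C1qc (-3.52) fell as well. So did the efferocytosis receptor Mertk (-1.34), the receptor kinase Axl (-2.75) and the ficolin Fcna (-3.35). Emr1, which encodes F4/80, was at 3.04 ± 0.509 CPM in ImuBcl6, 7.98 ± 0.934 CPM in Cre control and 3.43 ± 0.274 CPM in WT cells. Lyz2 (1.91 ± 0.554 CPM in ImuBcl6 against 1.82 ± 0.632 CPM in Cre control cells, adjusted p = 0.796), Itgam (2.04 ± 0.375 CPM in ImuBcl6 against 1.93 ± 0.642 CPM in Cre control cells, adjusted p = 0.674) and Cd68 (11.8 ± 1.14 CPM in ImuBcl6 against 10.5 ± 0.52 CPM in Cre control cells, adjusted p = 0.105) did not pass. Mpeg1, which encodes the pore-forming perforin-2 of macrophages and activated B cells, was higher beyond both control groups, at 122 ± 15 CPM in ImuBcl6, against 30.8 ± 3.35 CPM in Cre control cells (1.95 ± 0.09). The integrin Itgax, also a marker of atypical memory B cells, was higher at 4.45 ± 1.47 CPM in ImuBcl6, against 1.81 ± 1.31 CPM in Cre control cells (1.04 ± 0.27). All 19 listed markers, Mpeg1 included, summed to 125.6 to 172.6 CPM in ImuBcl6, 131.0 to 185.9 CPM in Cre control and 73.0 to 89.1 CPM in WT libraries, with none at 0 in all libraries of a group. Mpeg1, with its mean of 122 CPM in ImuBcl6 and 30.8 CPM in Cre control cells, makes up most of the ImuBcl6 sums. The similar sums of these 2 groups therefore do not mean similar levels of the other markers. Cd14 was at 0 to 0.257 CPM in ImuBcl6 and 0.498 to 1.40 CPM in Cre control libraries. Their part in other results was not tested. In bulk libraries fewer cells of a type and less RNA per cell cannot be told apart.

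Known repression targets of BCL6 did not move one way. In this list 14 of 25 tested members rose and 8 fell, beside the 39.6% and 31.5% of all genes, and 7 were higher and 4 lower beyond both control groups. The median log2 fold change was 0.41 against Cre control, -0.07 against WT and -0.22 with D370Y. Once the GC and length trend was removed 14 rose and 5 fell (median 0.28 against Cre control). The targets higher beyond both groups include the activation antigens Cd69 (1.45 ± 0.14) and Cd80 (1.43 ± 0.12), the adhesion receptor Cd44 (0.41 ± 0.06), the D-type cyclin Ccnd2 (0.79 ± 0.10), the E protein inhibitor Id2 (0.63 ± 0.08) and Zbtb32. Zbtb32, a repressor of plasma cell responses, was at 18.9 ± 1.7 CPM in ImuBcl6, 10.3 ± 0.804 CPM in Cre control and 6.9 ± 1.82 CPM in WT cells (0.81 ± 0.08). Those lower beyond both were Gpr183, Cdkn1b, Nfkb1 (-0.35 ± 0.05) and the interleukin 10 receptor chain Il10ra (-0.50 ± 0.08). The oxysterol receptor Gpr183 was at 7.95 ± 1.01 CPM in ImuBcl6, 11.9 ± 1.22 CPM in Cre control and 17.2 ± 1.22 CPM in WT cells (-0.53 ± 0.10). The CDK inhibitor Cdkn1b was at 7.83 ± 0.856 CPM in ImuBcl6, 14.7 ± 1.75 CPM in Cre control and 23.4 ± 2.72 CPM in WT cells (-0.82 ± 0.10). With the GC and length trend removed Cd44 gave -0.06 and Il10ra -0.22, and neither passed. The plasma cell regulator Prdm1 rose against Cre control (0.81 ± 0.17) but overlapped WT, and fell with D370Y (-1.03 ± 0.23). The checkpoint kinase Atr rose by 2.19 against Cre control, and its ImuBcl6 level of 26.2 ± 8.28 CPM was below the WT level of 38.1 ± 1.1 CPM.

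Of the corepressors through which BCL6 acts 4 of 20 tested members rose and 10 fell, beside the 39.6% and 31.5% of all genes. Beyond both control groups 5 were lower and 0 higher, beside 7.78% and 8.51% of all genes. Those lower include the class IIa deacetylases Hdac4 (-0.35 ± 0.09) and Hdac5, the Groucho-like Aes (-0.72 ± 0.09) and Ctbp1 (-0.57 ± 0.06). Hdac5 had 20.6, 23.1, 25.5, 29.6 and 24.4 CPM in the ImuBcl6 libraries, against 42.5, 44.1, 48.7, 45.3 and 45.7 CPM in the Cre control libraries. In WT libraries Hdac5 was at 33.1, 32.3 and 29.9 CPM. The ImuBcl6 libraries were the lowest (-0.86 ± 0.08, adjusted p = 6.09e-07). Ncor1, a nuclear receptor corepressor, rose against Cre control (257 ± 34.3 CPM in ImuBcl6, 129 ± 6.83 CPM in Cre control and 287 ± 23.7 CPM in WT cells, 0.98 ± 0.08) with -0.17 ± 0.11 against WT. Ezh2, the polycomb methyltransferase of germinal center cells, rose too (258 ± 32.5 CPM in ImuBcl6, 135 ± 9.03 CPM in Cre control and 265 ± 12.2 CPM in WT cells, 0.92 ± 0.08), with -0.05 ± 0.09 against WT. Tbl1xr1 rose to 128 ± 20.6 CPM in ImuBcl6, against 86 ± 5.82 CPM in Cre control cells (0.56 ± 0.09, adjusted p = 8.95e-05) but was at 168 ± 10.2 CPM in WT cells. With the GC and length trend removed its log2 fold change was -0.21, a fall that passed (adjusted p = 0.000883).

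Genes of B cell states gave mixed counts, to be read beside the 39.6% of all genes that rose and the 31.5% that fell. Of the germinal center genes 10 of 21 tested members rose and 7 fell, of the dark zone genes 8 of 19 tested members rose and 6 fell and of the light zone genes 4 of 20 tested members rose and 8 fell. The light zone counts depended on the scaling. Once the GC and length trend was removed 10 rose and 7 fell (median 0.17, beside -0.07 without that step), and 1 rose and 9 fell with TMM scaling. All tested genes had medians of 0.104 and -0.03 in those fits. Only Bcl6 was higher beyond both controls in the first list. The dark zone factor Tcf3, whose E protein ID3 inhibits, fell to 269 ± 32.7 CPM in ImuBcl6, against 506 ± 59.4 CPM in Cre control cells (-0.91 ± 0.10) and lay below both control groups, with 346 ± 14.6 CPM in WT cells. Mybl1 (1.45), Stap1 (0.78) and Rgs13 (0.82) rose against Cre control, yet gave -1.25, -0.66 and -1.68 in ImuBcl6 against WT, with Mybl1 at 129 ± 36.2 CPM in ImuBcl6, 45.6 ± 6.94 CPM in Cre control and 299 ± 10.3 CPM in WT cells. Rgs13 gave 0.26 (adjusted p = 0.0527) with the GC and length trend removed. Rassf6, a Ras association gene, and Sgol1, now Sgo1, which protects cohesion at centromeres, also rose against Cre control (0.87 and 1.10), with -0.15 and -0.20 against WT. Of the light zone genes, the early growth response factor Egr3 fell against both controls (6.07 ± 0.973 CPM in ImuBcl6, 9.45 ± 1.74 CPM in Cre control and 9.52 ± 0.728 CPM in WT cells, -0.56 ± 0.13), with -0.76 ± 0.18 in the D370Y comparison. Bcl2a1b, an anti-apoptotic gene with near-identical copies that could share its reads, fell against Cre control (-0.64) and gave 0.15 against WT. S1pr2, the receptor that confines cells to the germinal center, was at 465 ± 29.7 CPM in ImuBcl6 against 528 ± 35.5 CPM in Cre control cells (-0.18 ± 0.06, adjusted p = 0.0123), a call lost with the spread estimated over all 28 libraries.

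Of the memory B cell genes 14 of 23 tested members rose and 4 fell, with a median of 0.44 against Cre control and -0.33 against WT. Once the GC and length trend was removed 10 rose and 3 fell (median 0.17 against Cre control). Il9r, Zbtb32, Cd80 and Plac8 were higher beyond both control groups and had D370Y comparisons of the same sign. Plac8, a cysteine-rich protein of memory and innate cells, had 49.4, 67.3, 40.4, 60.1 and 64.2 CPM in the ImuBcl6 libraries, against 29.7, 31.5, 24.8, 22.4 and 31 CPM in the Cre control libraries. In WT libraries Plac8 was at 26.2, 26.9 and 28.5 CPM. The ImuBcl6 libraries were above all control libraries (0.98 ± 0.13). Pdcd1lg2, which encodes the PD-1 ligand PD-L2 of memory cells, was lower beyond both (-0.44 ± 0.11). The ectonucleotidase Nt5e was at 77.2 ± 9.13 CPM in ImuBcl6, 37.8 ± 2.45 CPM in Cre control and 95.4 ± 5.28 CPM in WT cells and rose against Cre control. Of the naive B cell genes 10 of 19 tested members rose and 5 fell (with the GC and length trend removed 7 rose and 6 fell). The chromatin organizer Satb1 fell in each comparison (8.03 ± 2.03 CPM in ImuBcl6, 20.5 ± 1.94 CPM in Cre control and 28.3 ± 2.63 CPM in WT cells, -1.28 ± 0.15, with -1.36 ± 0.14 for D370Y), as did the interleukin 4 receptor Il4ra against both controls (227 ± 20.6 CPM in ImuBcl6, 413 ± 18.3 CPM in Cre control and 292 ± 6.22 CPM in WT cells, -0.86 ± 0.06). Bank1 (1.07) and Gimap4 (1.31) rose against Cre control, with -0.64 and 0.00 against WT.

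Of the plasma cell genes 10 of 19 tested members rose and 4 fell (with the GC and length trend removed 7 rose and 5 fell). Those that fell, Sdc1, Tnfrsf13b, Cd93 and 2010001M09Rik, were lower beyond both control groups. Sdc1, the plasma cell antigen CD138, had 1.35, 2.31, 2.13, 2.7 and 2.42 CPM in the ImuBcl6 libraries, against 5.35, 8.3, 6.84, 7.62 and 10.6 CPM in the Cre control libraries. In WT libraries Sdc1 was at 6.07, 6.63 and 4.79 CPM. The ImuBcl6 libraries were the lowest (-1.45 ± 0.16, adjusted p = 1.8e-06). Tnfrsf13b, the receptor TACI, was at 11.2 ± 1.68 CPM in ImuBcl6, 27.9 ± 4.89 CPM in Cre control and 23.2 ± 0.969 CPM in WT cells (-1.24 ± 0.13). The survival receptor Cd93 gave -0.53 ± 0.15, and 2010001M09Rik, now Mzb1, a co-chaperone of antibody-secreting cells that was named after its value was seen, -0.42 ± 0.06, with 0.05 once the GC and length trend was removed. It overlaps Spata24 on the same strand. The secretory regulator Xbp1 was higher beyond both (0.29 ± 0.07), with the chaperone Hspa5 (0.74 ± 0.05) of the secretory list, in which 13 of 23 tested members rose and 4 fell. Hsp90b1 (1.45 ± 0.09) and Ell2 (1.34 ± 0.09) rose against Cre control, with ImuBcl6 levels of 471 ± 36.4 CPM and 99.6 ± 12.5 CPM, below the WT levels of 592 ± 54 CPM and 106 ± 6.56 CPM. The stress sensor Atf6 (0.98), the co-chaperone Dnajc3 (0.92) and the disulfide isomerase Pdia3 (0.76) rose as well, with 0.07, -0.27 and 0.05 against WT.

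Receptors that place B cells in the follicle were lower more often than higher. Among chemoattractant and egress receptors 3 of 12 tested members rose and 7 fell, beside the 39.6% and 31.5% of all genes. Beyond both control groups 3 were lower and 0 higher, beside 7.78% and 8.51% of all genes. The medians were -0.17 against Cre control, -0.40 against WT and -0.51 with D370Y. S1pr4, a sphingosine 1-phosphate receptor (chromosome 10, 81497747 to 81500132, minus strand), had 16.9, 22.7, 20.1, 22.6 and 20.1 CPM in the ImuBcl6 libraries, against 55.1, 57.7, 62.1, 63.8 and 51.4 CPM in the Cre control libraries. In WT libraries S1pr4 was at 45, 42.2 and 42.5 CPM. The 3 groups were apart, with ImuBcl6 lowest (-1.46 ± 0.09, adjusted p = 1.13e-08). Cxcr5, the receptor that leads B cells into follicles, was at 296 ± 28.8 CPM in ImuBcl6, 396 ± 14.2 CPM in Cre control and 368 ± 11.8 CPM in WT cells (-0.43 ± 0.07), and Gpr183 was given above. These 3 also fell with D370Y (-0.25 ± 0.07, -0.61 ± 0.10 and -0.68 ± 0.15 for Cxcr5, S1pr4 and Gpr183). Cxcr5 and Gpr183 overlap other genes on the opposite strand.

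Costimulatory and BAFF family receptors moved in both directions. Of these 10 of 19 tested members rose and 5 fell, beside the 39.6% and 31.5% of all genes. Beyond both groups 4 were higher and 4 lower, beside 8.51% and 7.78% of all genes. The inhibitory ligand Cd274, PD-L1, rose to 13.2 ± 1.7 CPM in ImuBcl6, against 6.55 ± 1.07 CPM in Cre control cells (0.92 ± 0.11), with 9.81 ± 0.609 CPM in WT cells, while Tnfrsf13c, the BAFF receptor, fell (-0.41 ± 0.06). The inhibitory receptor Btla was lowest in Cre control cells, at 147 ± 29.9 CPM in ImuBcl6, 83 ± 12.8 CPM in Cre control and 303 ± 18.3 CPM in WT cells (0.81 ± 0.13). Pdcd1, which encodes the inhibitory receptor PD-1 and was listed as a T cell marker, had 4.3, 5.9, 5.96, 6.59 and 5.28 CPM in the ImuBcl6 libraries, against 1.64, 1.55, 1.86, 1.6 and 0.967 CPM in the Cre control libraries. In WT libraries Pdcd1 was at 1.55, 0.473 and 0.798 CPM. It was low but without overlap (1.39 ± 0.12, adjusted p = 2.87e-07), and 1.44 ± 0.22 with D370Y. The other T cell markers tested, the adaptor Lat and the surface receptor Cd5, fell (1.89 ± 0.8 CPM in ImuBcl6 against 2.99 ± 0.473 CPM in Cre control cells for Lat and 1.22 ± 0.251 CPM in ImuBcl6 against 1.78 ± 0.455 CPM in Cre control cells for Cd5). Neither passed with the GC and length trend removed (-0.00 and 0.11), and Cd5 also failed with no filter on low values, with the replicate number as a block and without single libraries. The T cell receptor chain Cd3e was at 0.095 to 0.247 CPM in ImuBcl6 and 0.0807 to 0.269 CPM in Cre control libraries, and 11 of the 14 listed T cell markers were below the filter. Of the erythroid and platelet markers 0 of 2 tested members rose and 1 fell, which was the globin gene Beta-s at 2.81 ± 1.57 CPM in ImuBcl6 against 5.05 ± 1.99 CPM in Cre control cells, a call lost without single libraries of either group. Of the stroma and endothelium markers 1 of 2 tested members rose and 0 fell, which was the endothelial cadherin Cdh5 at 2.76 ± 0.253 CPM in ImuBcl6, 1.75 ± 0.179 CPM in Cre control and 1.76 ± 0.269 CPM in WT cells.

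In the BCL2 family, which sets the threshold of apoptosis, 4 of 15 tested members rose and 8 fell, beside the 39.6% and 31.5% of all genes. Once the GC and length trend was removed 7 rose and 6 fell. Bmf, a BH3-only killer protein (chromosome 2, 118528757 to 118549687, minus strand), had 21.7, 16.2, 22.9, 19.6 and 18 CPM in the ImuBcl6 libraries, against 53.5, 51.3, 56.6, 61.7 and 55.2 CPM in the Cre control libraries. In WT libraries Bmf was at 37.2, 40.0 and 39.8 CPM. ImuBcl6 libraries were lowest and Cre control libraries highest (-1.46 ± 0.09, adjusted p = 1.33e-08), and the fall was -1.13 ± 0.15 with D370Y. The anti-apoptotic Bcl2l1 was lower beyond both as well, at 14.8 ± 0.981 CPM in ImuBcl6, 32.4 ± 2.96 CPM in Cre control and 18.1 ± 1.24 CPM in WT cells (-1.07 ± 0.08). So was the pro-apoptotic Bad, at 31.4 ± 4.74 CPM in ImuBcl6, 63.9 ± 2.48 CPM in Cre control and 38.9 ± 0.973 CPM in WT cells (-1.02 ± 0.09). Bcl2, the survival gene that BCL6 represses, had 7.55, 9.08, 5.44, 7.89 and 5.1 CPM in the ImuBcl6 libraries, against 2.91, 2.96, 2.23, 1.92 and 3.06 CPM in the Cre control libraries. In WT libraries Bcl2 was at 10.5, 9.51 and 10.6 CPM. ImuBcl6 libraries lay above every Cre control library and below every WT library (1.13 ± 0.15 and -0.51 ± 0.16).

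D-type cyclins, which open the G1 gate of the cell cycle, changed in opposite directions. Of the D cyclins, their kinases and CDK inhibitors 6 of 15 tested members rose and 6 fell (with the GC and length trend removed 9 rose and 2 fell), and of the same list the pocket protein genes Rb1 (1.18) and Rbl1 (0.90) rose with -0.59 and -0.27 against WT. Ccnd3, the cyclin of dark zone proliferation, fell to 230.4 ± 30.8 CPM in ImuBcl6, against 461 ± 19.6 CPM in Cre control cells (-1.01 ± 0.08), with 294 ± 14.7 CPM in WT cells and -0.54 ± 0.08 with D370Y. Ccnd2 was at 37.7 ± 6.28 CPM in ImuBcl6, 21.2 ± 2.01 CPM in Cre control and 16.7 ± 0.582 CPM in WT cells and its partner Cdk6 at 17.9 ± 3.26 CPM in ImuBcl6, 7.27 ± 1.27 CPM in Cre control and 11.7 ± 0.332 CPM in WT cells (1.18 ± 0.13), both beyond both control groups. Their D370Y comparisons gave 0.14 ± 0.16 (adjusted p = 0.476) and 0.06 ± 0.12 (adjusted p = 0.705), which did not pass. The CDK inhibitors Cdkn1b, Cdkn2c (-0.30 ± 0.05) and Cdkn2d (-0.50 ± 0.05) were lower beyond both. With the GC and length trend removed, Cdkn2c gave 0.18, a rise that passed (adjusted p = 0.022), and Cdkn2d gave -0.00, which did not pass. Among G1/S and replication genes 8 of 21 tested members rose and 8 fell (with the GC and length trend removed 9 rose and 4 fell), and those beyond both controls were all higher. Mcm6, a subunit of the replicative helicase, was at 1053 ± 20.9 CPM in ImuBcl6, 753 ± 18.5 CPM in Cre control and 875 ± 19.9 CPM in WT cells (0.48 ± 0.04). Cdc6 (0.21 ± 0.05), Tyms (0.23 ± 0.06) and Rrm2 (0.12 ± 0.05) passed too, and Cdc45 did not pass the test (0.07 ± 0.05, adjusted p = 0.196). Tyms and Rrm2 did not pass with the GC and length trend removed (0.09 and -0.03), nor did Rrm2 with TMM scaling or when single libraries of either group were left out. The E cyclin Ccne2 (1.12), the reductase subunit Rrm1 (0.68) and the primase Prim1 (0.63) rose and the licensing factor Cdt1 (-0.56) fell against Cre control, with -1.11, 0.02, -0.12 and -0.09 against WT. Cdt1 did not pass with the GC and length trend removed (-0.10).

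For mitotic genes the choice of control mattered. Of the G2/M genes 12 of 22 tested members rose, 7 of them by at least 2-fold, and 3 fell, yet the median was 0.36 against Cre control and 0.05 against WT. Once the GC and length trend was removed 18 rose and 2 fell (median 0.35 against Cre control). Mki67, the proliferation antigen, had 2006, 1521, 1684, 1189 and 1125 CPM in the ImuBcl6 libraries, against 353, 354, 244, 289.9 and 214 CPM in the Cre control libraries. In WT libraries Mki67 was at 1719, 1783 and 1914 CPM. The Cre control was lowest without overlap (2.36 ± 0.16), while ImuBcl6 and WT overlapped (-0.29 ± 0.16). The mitotic kinesin Cenpe (2.36), the kinetochore gene Cenpf (2.13), the topoisomerase Top2a (2.13), Hmmr (2.49) and the DNA damage kinase Atm (2.02) rose against Cre control. Each had a lower mean in ImuBcl6 than in WT cells. Cenpe was at 179 ± 50.8 CPM in ImuBcl6 and 247 ± 16.2 CPM in WT cells, and Top2a at 1114 ± 160.5 CPM in ImuBcl6 and 1192 ± 50.0 CPM in WT cells. Hmmr was at 105 ± 24.1 CPM in ImuBcl6 and 133 ± 6.76 CPM in WT cells, and Atm at 94.2 ± 22.2 CPM in ImuBcl6 and 144 ± 4.45 CPM in WT cells. Cenpf gave -0.70 against WT. The largest rises that did not hold against WT were in Ccdc88a, a vesicle and actin adaptor (2.70, and -0.11 against WT), and the centrosomal Lrrcc1 (2.67, and -0.76 against WT). The others were Samd9l (2.65, and -1.72 against WT) and Eif2ak2, the double-stranded RNA kinase PKR (2.59, and 0.25 against WT). Samd9l and Eif2ak2 are interferon-induced, and Samd9l was the lowest in Cre control and the highest in WT cells (45.6 ± 16.9 CPM in ImuBcl6, 6.26 ± 1.79 CPM in Cre control and 145 ± 16.4 CPM in WT cells).

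**Figure D5:**
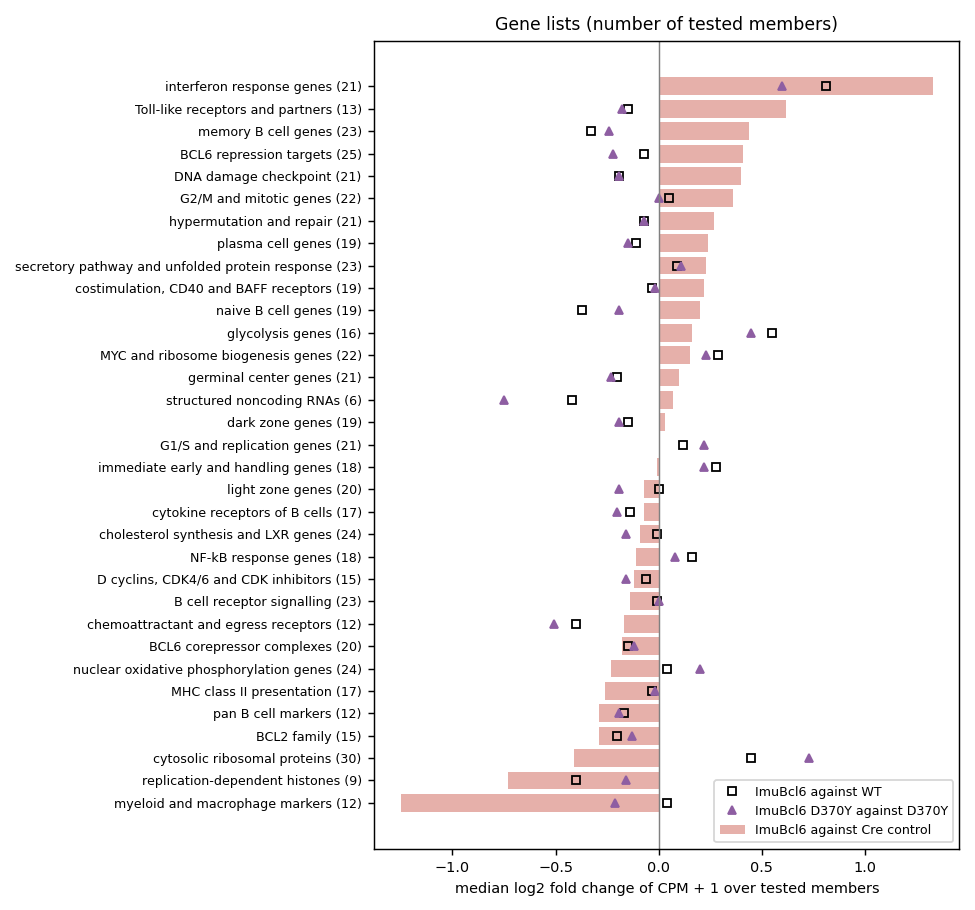
Median log2 fold change of CPM + 1 over the tested members of each gene list with at least 6 (x axis; number of tested members in parentheses), as bars for ImuBcl6 against Cre control, squares for ImuBcl6 against WT and triangles for ImuBcl6 D370Y against D370Y. The interferon list has the longest bar to the right and symbols on the same side, whereas the ribosomal protein list has its bar at -0.41 and its symbols at 0.45 and 0.73.

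Genes of translation and energy metabolism also read differently against the 2 controls. Of the cytosolic ribosomal protein genes 4 of 30 tested members rose and 20 fell. Rplp1 was at 724 ± 203 CPM in ImuBcl6, 1574 ± 72.5 CPM in Cre control and 623 ± 37.4 CPM in WT cells (-1.17 ± 0.16). The median was -0.41 against Cre control and 0.45 against WT. With the GC and length trend removed it was -0.05 against Cre control, and 7 rose and 12 fell. Rplp2 was lower beyond both control groups (83 ± 19.5 CPM in ImuBcl6, 159.7 ± 19.4 CPM in Cre control and 261 ± 25.3 CPM in WT cells, -0.96 ± 0.14), Rpl5 rose (0.86), and Rps29 was at 3.89 ± 0.805 CPM in ImuBcl6, 7.69 ± 0.346 CPM in Cre control and 0.362 ± 0.133 CPM in WT cells (-0.85 ± 0.11). These genes have near-identical pseudogene copies that could share their reads. Of the nuclear oxidative phosphorylation genes 3 of 24 tested members rose and 15 fell (median -0.23, and 0.04 against WT). Once the GC and length trend was removed 10 rose and 11 fell (median -0.04). The complex III subunit Uqcrq (54 ± 14.2 CPM in ImuBcl6, 107 ± 5.08 CPM in Cre control and 79.4 ± 2.25 CPM in WT cells, -1.01 ± 0.15) and the complex I subunits Ndufs7 (-0.89 ± 0.11) and Ndufa2 (-0.86 ± 0.10) were lower beyond both control groups, while Ndufs1 rose (0.65, and -0.23 against WT). Of the glycolysis genes 6 of 16 tested members rose and 1 fell (with the GC and length trend removed 12 rose and 1 fell). Gapdh, of this list, was low, at 7.65 to 9.39 CPM in ImuBcl6, 8.21 to 9.0 CPM in Cre control and 1.12 to 1.38 CPM in WT libraries. Eno1 was below the filter on low values. Near-identical copies could share reads in this list too, and their part in its values was not tested. Pdk1, whose product keeps pyruvate out of the mitochondria, was higher beyond both control groups (50.6 ± 5.97 CPM in ImuBcl6, 19.5 ± 2.09 CPM in Cre control and 38.9 ± 5.95 CPM in WT cells, 1.33 ± 0.09). The same held for the glycolytic kinases Pfkp (285 ± 34.8 CPM in ImuBcl6, 199.6 ± 4.59 CPM in Cre control and 183 ± 5.92 CPM in WT cells, 0.50 ± 0.07) and Hk2 (0.35 ± 0.07). Pfkp did not pass with the GC and length trend removed (0.13). The isomerase Tpi1 rose against both controls (597 ± 126 CPM in ImuBcl6, 448 ± 39.9 CPM in Cre control and 292 ± 22.1 CPM in WT cells, 0.39 ± 0.12). Of the replication-dependent histone genes, whose transcripts lack a poly(A) tail, 0 of 9 tested members rose and 7 fell. All 25 summed to 32.5 to 47.8 CPM in ImuBcl6, 53.5 to 81.7 CPM in Cre control and 46.3 to 51.8 CPM in WT libraries. Hist1h1e (-0.97), Hist1h2bc (-0.85) and Hist1h4i (-0.75) were lower beyond both control groups, and Hist1h4d fell against Cre control (-0.75). Of the structured noncoding RNAs, of which Rpph1 and Rmrp fell, 2 of 6 tested members rose and 2 fell (with the GC and length trend removed 0 rose and 4 fell). The paraspeckle RNA Neat1 rose (0.59, and -0.94 against WT), as did Snhg1, a host of small nucleolar RNAs (0.24, and 0.21 against WT). With the GC and length trend removed Neat1 gave 0.16, which did not pass, and Snhg1 gave -0.26, a fall that passed (adjusted p = 0.00342).

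Genes of the B cell receptor and antigen presentation were called lower more often than higher, a balance that did not hold with the GC and length trend removed. That step also moved the median of all tested genes from 0.05 to 0.104. In the receptor signalling list 3 of 23 tested members rose and 12 fell, with a median of -0.14 against Cre control and -0.01 against WT, and with the trend removed 8 rose and 6 fell (median 0.01). In the MHC class II list 2 of 17 tested members rose and 10 fell, with medians of -0.26 and -0.03 against those controls, and with the trend removed 7 rose and 5 fell (median 0.08). The adaptor Dok3 was lower beyond both groups, at 184 ± 26.9 CPM in ImuBcl6, 304 ± 29.8 CPM in Cre control and 236 ± 20.5 CPM in WT cells (-0.73 ± 0.10). The signalling chain Cd79b fell (1576 ± 153 CPM in ImuBcl6 against 2508 ± 119 CPM in Cre control cells, -0.67 ± 0.07) and gave -0.15 against WT. Malt1, the protease of antigen receptor signalling, and the kinase Prkcb rose against Cre control (0.94 and 0.67) and had -0.38 and -0.57 against WT. Malt1 gave 0.06 with the GC and length trend removed and was not called. The class II chains H2-Ab1 (-0.50) and H2-Eb1 (-0.46), the peptide exchange factor H2-DMb2 (-0.42) and the cathepsin Ctsb (-0.43) fell, with -0.13, -0.03, 0.06 and 0.10 against WT. With the same trend removed H2-Ab1 gave 0.08 and H2-DMb2 -0.06, and neither was called (adjusted p = 0.071 and 0.322). Of the pan B cell markers 3 of 12 tested members rose and 7 fell (with the GC and length trend removed 2 rose and 3 fell). Ptprc, which encodes CD45, was at 939 ± 157 CPM in ImuBcl6, 347 ± 37.4 CPM in Cre control and 1483 ± 108 CPM in WT cells (1.42 ± 0.11), while Cd79a (-0.57) and the tetraspanin Cd37 (-0.54) fell, Cd37 beyond both control groups, and neither passed with the trend removed (-0.11 and -0.09). Of the NF-kB response genes 3 of 18 tested members rose and 8 fell (median -0.11). That balance turned with the GC and length trend removed, where 12 rose and 3 fell (median 0.21, beside 0.104 over all tested genes). The 3 that rose in the fit without that step were also beyond both controls. The apoptosis inhibitor Birc3 was at 131 ± 3.88 CPM in ImuBcl6, 65.2 ± 6.37 CPM in Cre control and 101 ± 4.06 CPM in WT cells, and the others were the deubiquitinase Tnfaip3 (0.88 ± 0.08) and Nfkbiz (0.73 ± 0.09). The cytokine Ltb (-0.57 ± 0.10) and the activation antigen Cd83 (-0.39 ± 0.07) were lower beyond both, with 0.11 for Ltb once the GC and length trend was removed. Of the hypermutation and repair genes 14 of 21 tested members rose and 3 fell, beside the 39.6% and 31.5% of all genes. Among those higher beyond both were Xrcc6, a subunit of the end-joining factor Ku (0.35 ± 0.05), and the repair scaffold Trp53bp1 (0.40 ± 0.07, and 0.01 with the GC and length trend removed). The largest rises of that list were the repair pathway regulator Rif1 at 81.3 ± 24.3 CPM in ImuBcl6, 17 ± 4.36 CPM in Cre control and 145 ± 9.56 CPM in WT cells (2.17 ± 0.20), the polymerase zeta subunit Rev3l (1.72), the end-joining ligase Lig4 (1.54) and Rev1 (0.73). Against WT Rif1 gave -0.87, Lig4 -0.96 and Rev1 -0.14, and Rev3l was at 97.6 ± 27.5 CPM in ImuBcl6 and 189.8 ± 11.6 CPM in WT cells.

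Immediate early and heat shock genes can respond to how cells are handled. Of the listed genes of this kind 6 of 18 tested members rose and 8 fell (with the GC and length trend removed 9 rose and 5 fell). Fosb had 23.2, 11.8, 20.4, 25.2 and 18.4 CPM in the ImuBcl6 libraries, against 4.95, 5.42, 7.34, 5.8 and 3.01 CPM in the Cre control libraries. In WT libraries Fosb was at 0.861, 0.559 and 0.532 CPM. ImuBcl6 was highest, Cre control intermediate and WT lowest, without overlap (1.72 ± 0.20, adjusted p = 3.39e-06). Fos was at 179 ± 24.3 CPM in ImuBcl6, 92.3 ± 25.1 CPM in Cre control and 1.05 ± 0.367 CPM in WT cells (0.98 ± 0.16). The heat shock gene Hspa1b was at 0.95, 1.39, 4.95, 7.54 and 7.41 CPM in the ImuBcl6 libraries, against 28.8, 32.5, 36, 53 and 3.81 CPM in the Cre control libraries. In WT libraries Hspa1b was at 0.172, 0.387 and 0.355 CPM. Its Cre control libraries were widely spread and overlapped the ImuBcl6 libraries, although the fall passed the test (-2.45 ± 0.62, adjusted p = 0.00337). Hspa1a, its near-identical neighbour, was at 2.12 ± 1.77 CPM in ImuBcl6 against 16 ± 9.88 CPM in Cre control cells (-2.29 ± 0.58), and reads could be shared between these 2 genes. Hspa1a did not pass with the replicate number as a block. Hsp90aa1 rose (199 ± 38.5 CPM in ImuBcl6 against 61.5 ± 11.3 CPM in Cre control cells, 1.68 ± 0.14). Their part in the other results was not tested.

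ImuBcl6 D370Y against D370Y measured the same allele in other libraries, which differed between those groups much as ImuBcl6 and WT libraries did. Recovered reads came to 32.0 to 37.7 M in ImuBcl6 D370Y and 19.2 to 22.2 M in D370Y libraries, beside 31.8 to 36.5 M in ImuBcl6 and 19.0 to 19.4 M in WT libraries. Rn45s was at 1914 to 3212 CPM in ImuBcl6 D370Y and 5130.1 to 11694 CPM in D370Y libraries. The glycolytic gene Gapdh was at 7.16 to 11.3 CPM in ImuBcl6 D370Y and 1.17 to 2.57 CPM in D370Y libraries, beside 7.65 to 9.39 CPM in ImuBcl6 and 1.12 to 1.38 CPM in WT libraries. Fosb, of the handling list, was at 21.6 ± 2.9 CPM in ImuBcl6 D370Y and 1.02 ± 0.584 CPM in D370Y cells (3.52 ± 0.17). The log2 fold change rose with GC content in this comparison (Spearman rho 0.25, median -0.40 in the lowest of the 10 GC groups). In ImuBcl6 against Cre control it fell with GC content (rho -0.66, median 0.71 in that group). The part of these differences in the values that follow was not tested. Over the 10148 genes tested in both comparisons 47.5% had the same sign, and 24.4% were called in that direction with D370Y. Of the 965 that were at least 2-fold higher against Cre control 28.9% had the same sign with D370Y, with 17.3% called in that direction. Of the 122 that were at least 2-fold lower 90.2% had the same sign, with 81.1% called in that direction. Genes named above that were beyond both controls and also called in the same direction with D370Y include Bcl6, Tgtp2, S1pr4, Bmf, Satb1, Sdc1, Cdkn1b, Zbtb32 and Pdcd1. Irf1 was at 213 ± 12.7 CPM in ImuBcl6 D370Y and 102 ± 25.7 CPM in D370Y cells there (1.10 ± 0.15) and Chst1 at 97.5 ± 36.3 CPM in ImuBcl6 D370Y and 20.4 ± 9.78 CPM in D370Y cells (2.28 ± 0.33). Id3 was at 32.3 ± 4.34 CPM in ImuBcl6 D370Y and 83.7 ± 14.4 CPM in D370Y cells (-1.34 ± 0.11), and Slpi at 24.7 ± 6.47 CPM in ImuBcl6 D370Y and 159 ± 62.5 CPM in D370Y cells (-2.60 ± 0.24). Genes that went the other way with D370Y were Tbl1xr1 (-0.56 ± 0.06), Mki67 (-0.47 ± 0.13), Atr (-0.84 ± 0.12), Mybl1 (-1.28 ± 0.17) and Samd9l (-1.48 ± 0.19). Sex-linked genes separated those groups too: Xist was at 0.299 to 1.39 CPM in ImuBcl6 D370Y and 486 to 1460.3 CPM in D370Y libraries.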

How the data were processed

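RNA-seq of mouse germinal center B cells was measured in 28 libraries, and 10 of them form the comparison described here. RNA was isolated with Trizol and purified on RNeasy columns, per the labels' protocols. The submitters' processing notes name STAR and the mm10 build without versions, and no counter, strand setting or annotation is stated there. The authors deposited CPM for 23382 gene symbols per library. Dividing each deposited CPM by what 1 read was worth in its library gave whole reads (tolerance 0.01 read) in 100% of cases, and the count tests used these reads. The listed genes held 80.8% to 83.9% of the CPM denominator in the 10 libraries.

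Symbols were matched to GENCODE M21, with 22917 of 23382 found (98.0%), and coordinates are from that annotation. Groups follow the labels. limma 3.58.1 (R 4.3.3) was fitted to log2(CPM + 1) with a trend and robust moderation, using only the libraries of each comparison and no covariate. Adjusted p-values cover all tested genes, two-sided, at a threshold of 0.05. In comparisons with WT, 3 libraries had to reach 1 CPM. On reads simulated for ImuBcl6 against Cre control (10293 genes, 100 changed at each size) 94% of 1.5-fold and 97% of 2-fold changes were recovered, with 17 false calls. Alternatives were edgeR 4.0.16 (quasi-likelihood), DESeq2 1.42.0, TMM scaling, CPM over listed genes, other filters, a pseudocount of 0.25, the replicate number as a block, all 28 libraries in 1 fit and leaving out each library. Removal of the trend over GC content and length was added after seeing the data.

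Members and gene lists were chosen with earlier results of these data known. Named genes are Bcl6, Tbl1xr1 and Bcl2, the 12 largest rises and 12 largest falls at a mean of at least 5 CPM that were beyond both control groups, the 4 largest each way that were not, and up to 4 called members per list. Predicted gene models were left out. Some genes that meet this rule are not reported here. Other list members were named after their values were seen. Genes on X and Y were not tested. Near-identical copies could share reads, and so could genes that overlap another annotated gene, among them Irf1, Irf7, Irf9, Ifnar2, Csf1r, Ncor1, Ccnd3, Bad, Pfkp, Trp53bp1, Rb1 and Gnl3. A count of 3 reads corresponded to 0.0673 to 0.0772 CPM in ImuBcl6 and 0.0786 to 0.0813 CPM in Cre control libraries, for counting error only.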

Additional observations from a re-analysis of the deposited data

Results flagged for a closer look

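Among the 216 named genes examined, the 2 comparisons went opposite ways without overlap in those listed here. All ImuBcl6 libraries lay on one side of all Cre control libraries, and all ImuBcl6 D370Y libraries on the other side of all D370Y libraries. The share of such genes among all tested genes was not counted. Many named genes were chosen for a large change against Cre control, so their number is not a result about them. Over all tested genes the log2 fold change fell with GC content against Cre control (rho -0.66) and rose with it in the D370Y comparison (rho 0.25). The part of those trends here was not tested. Over the 10148 genes tested in both comparisons 47.5% had the same sign, and 28.9% of the 965 at least 2-fold higher against Cre control did. The difference between the 2 effects was not tested, and the 2 comparisons use different control libraries. Log2 fold changes with D370Y and without it were -0.208 and 0.22 for Ifnar1, -0.842 and 2.194 for Atr, -0.559 and 0.558 for Tbl1xr1, -1.277 and 1.447 for Mybl1, and -0.581 and 0.781 for Stap1. They were -0.466 and 2.361 for Mki67, -0.42 and 2.492 for Hmmr, and -0.687 and 2.022 for Atm. For Ccdc88a they were -0.987 and 2.695, for Lrrcc1 -0.843 and 2.668, for Samd9l -1.483 and 2.645, for Tlr2 -0.34 and 0.617 and for Abca1 -0.848 and 1.063. For signalling and surface genes they were -0.433 and 0.939 for Malt1, -0.523 and 0.672 for Prkcb, -0.958 and 0.808 for Btla, -1.016 and 0.919 for Tgfbr1, -0.869 and 0.918 for Tlr4, -0.272 and 0.656 for Tlr1 and -0.665 and 1.423 for Ptprc. In genes of repair and division they were -0.945 and 2.174 for Rif1, -1.133 and 1.717 for Rev3l, -0.931 and 1.544 for Lig4, -0.853 and 1.175 for Rb1 and -0.748 and 2.129 for Cenpf, and they were -1.231 and 0.585 for Neat1. Rplp1 and Rps29 went the other way, with 0.627 and -1.174 for Rplp1 and 2.033 and -0.845 for Rps29. Both have near-identical pseudogene copies that could share their reads, and Rps29 was low in the ImuBcl6, Cre control and WT libraries, as given above.

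Single libraries lay apart from the other 4 of their group in 22 of 432 groups of 5 examined (5.1%), and chance flags about 1 in 20. In ImuBcl6 replicate 1 Irf7 was at 44.9 CPM (50.2 to 52.1 in the others) and Tcf3 at 211.2 CPM (279.5 to 292.0). In replicate 2 Itgax was at 6.98 CPM (3.38 to 4.35) and Fos at 136.4 CPM (184.3 to 196.5). Replicate 3 had Trp53bp1 at 104.4 CPM (92.5 to 94.0). Replicate 4 had Pdia3 at 628.4 CPM (664.1 to 670.9), Rrm2 at 352.5 CPM (363.6 to 367.1) and Il1r2 at 3.42 CPM (1.57 to 1.78). Replicate 5 had Oasl2 at 10.3 CPM (11.9 to 12.5), Satb1 at 4.45 CPM (8.60 to 9.52) and Cdc45 at 174.6 CPM (157.8 to 160.5). In Cre control replicate 1 C1qb was at 21.8 CPM (12.2 to 14.5), Ctbp1 at 345.4 CPM (374.3 to 386.0), Tnfrsf13b at 19.5 CPM (28.1 to 31.5) and Rrm2 at 301.1 CPM (335.0 to 347.8). That library also had Ndufa2 at 150.7 CPM (125.7 to 131.8), Nr1h3 at 3.36 CPM (1.93 to 2.31), Nr1h2 at 86.9 CPM (102.7 to 108.0) and Snhg1 at 62.7 CPM (49.1 to 52.4). Cre control replicate 2 had Nop58 at 58.3 CPM (48.5 to 49.3). In Cre control replicate 4, the library with Ddx3y, Pdk1 was at 15.7 CPM (at most 20.7) and Mxd4 at 54.4 CPM (44.6 to 45.9).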

How the results depend on the processing

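The count of 7323 genes, of 10293 tested, ranged from 6381 to 8145 over the alternatives at any size of change. Those extremes came from other filters, with 6381 of 8711 tested at a minimum of 5 CPM and 8145 of 15907 with no filter on low values. The count was 6847 to 7272 with each library left out in turn, and 1128 with a 2-fold change required. That count of 1128 was 579 with the GC and length trend removed and 932 to 1169 with single libraries left out. The trend removal gave 6731 genes, 66.2% of them higher, beside 55.7% without it, and TMM scaling gave 47.2% higher and moved the median of all genes to -0.03. Leaving out single libraries gave 7285 to 8052 genes for Cre control against WT, 4222 to 6132 for ImuBcl6 against WT and 4809 to 5438 for ImuBcl6 D370Y against D370Y. Without Cre control replicate 4, the library with Ddx3y, 6875 were called.

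Of 4254 log2 fold changes of named genes under the alternatives 4166 kept their sign and side of the threshold, and 23 changed sign. With the GC and length trend removed these were Cd44 (-0.059), Tbl1xr1 (-0.205), Cdkn2c (0.177), Rrm2 (-0.032), Ltb (0.108), H2-Ab1 (0.076), Snhg1 (-0.26), 2010001M09Rik (0.054) and Cd5 (0.107). Of these Tbl1xr1, Cdkn2c and Snhg1 passed in the opposite direction, and the others did not pass in that fit. With TMM scaling, edgeR and DESeq2 they were Stat2 (-0.052, -0.053 and -0.044), Lyz2 (-0.003, -0.014 and -0.006) and Cdc45 (-0.016, -0.016 and -0.007), none of which passed the main test. With single libraries left out they were Lyz2 (over all such fits -0.039 to 0.145) and Itgam (-0.015 to 0.174). The cause was not tested.

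The replicate numbers did not pair the libraries: deviations of same-numbered libraries correlated at 0.0482 to 0.321, and 2 of 5 matched their own number best. The fit with the replicate number as a block called 7391 genes, and 1127 at 2-fold. Depth was similar in both groups, and genes near the filter on low values are measured least precisely.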

Other observations

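Further gene lists are given here by their counts, to be read beside the 39.6% of all genes that rose and the 31.5% that fell. Of the Toll-like receptors and their partners 8 of 13 tested members rose and 2 fell, with a median of 0.62 against Cre control and -0.15 against WT. Tlr6, a partner of TLR2 in sensing lipopeptides, was the member higher beyond both control groups (21.1 ± 1.14 CPM in ImuBcl6, 9.51 ± 1.54 CPM in Cre control and 16.2 ± 1.01 CPM in WT cells, log2 fold change 1.09 ± 0.10). The double-stranded RNA receptor Tlr3 (1.35), the lipopolysaccharide receptor Tlr4 (0.92) and Tlr1 (0.66) rose against Cre control, with 0.08, -1.16 and -0.45 against WT. Of the MYC and ribosome biogenesis genes 10 of 22 tested members rose and 6 fell. The nucleolar genes Gnl3 (1.45), Nop58 (1.42) and Ncl (1.32) were among the rises, with 0.12, -0.38 and 0.04 against WT. The polyamine enzyme Odc1 was at 243 ± 19 CPM in ImuBcl6, 148 ± 6.14 CPM in Cre control and 68.2 ± 2.4 CPM in WT cells (0.72 ± 0.06, and 1.81 ± 0.08 with D370Y), and the MYC antagonist Mxd4 was lower beyond both groups at 22.8 ± 3.41 CPM in ImuBcl6, 47 ± 4.22 CPM in Cre control and 40.2 ± 3.02 CPM in WT cells (-1.02 ± 0.10, and -0.54 ± 0.11 with D370Y). Of the DNA damage checkpoint genes 12 of 21 tested members rose and 5 fell. Ccng1, which encodes cyclin G1, and Mdm4 rose (1.15 and 1.09), with -0.62 and 0.25 against WT. Gadd45b, a stress gene, was at 105 ± 14.8 CPM in ImuBcl6, 175 ± 26 CPM in Cre control and 154 ± 6.04 CPM in WT cells (-0.74 ± 0.11, and -0.18 with the GC and length trend removed).

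Of the cholesterol synthesis and LXR genes 6 of 24 tested members rose and 9 fell. The desaturase Scd1 (396 ± 21.3 CPM in ImuBcl6, 508 ± 27.4 CPM in Cre control and 552 ± 26.8 CPM in WT cells, -0.36 ± 0.05) and the LXR target Mylip, which degrades the LDL receptor (24.3 ± 2.08 CPM in ImuBcl6, 32.1 ± 3.15 CPM in Cre control and 48.4 ± 1.63 CPM in WT cells, -0.39 ± 0.08), were lower beyond both control groups, while the lipid transporters Abca1 (22.5 ± 7.22 CPM in ImuBcl6, 9.89 ± 0.962 CPM in Cre control and 49 ± 1.87 CPM in WT cells) and Cd36 (40.9 ± 14 CPM in ImuBcl6, 10.3 ± 1.91 CPM in Cre control and 50.1 ± 6.87 CPM in WT cells) rose against Cre control, with the highest means in WT. The LXR genes Nr1h3 (-1.09) and Nr1h2 (-0.74) fell, with Nr1h3 at 0.541 ± 0.197 CPM in ImuBcl6 against 2.3 ± 0.612 CPM in Cre control cells. Of the cytokine receptors 7 of 17 tested members rose and 6 fell. The TGF-beta receptor Tgfbr1 rose (0.92) and gave -0.88 against WT. Il1r2, a decoy receptor for interleukin 1, was higher beyond both groups at 2.05 ± 0.768 CPM in ImuBcl6, 0.922 ± 0.252 CPM in Cre control and 0.812 ± 0.266 CPM in WT cells (0.65 ± 0.15), and Il17ra lower at 209 ± 10.4 CPM in ImuBcl6, 278 ± 10.7 CPM in Cre control and 236 ± 1.68 CPM in WT cells (-0.42 ± 0.05).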
